A study of Mus musculus with 8 samples.

Results

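The collagen gene family is described here across 8 RNA-seq libraries of PyMT-1099 cells, a mouse breast cancer line derived from a mammary tumour of an animal carrying the polyoma middle T oncogene. The members are the genes whose symbol is Col, a number, the letter a and a number, which gave 44 of the 55450 gene identifiers counted. The rule reads the symbol alone, but the family was taken up with earlier results of these data known. The libraries form 4 groups of 2: Agps knockout (KO) cells with TGF-β, untreated KO cells, parental (WT) cells with TGF-β and untreated WT cells. TGF-β was given at 2 ng/ml for 10 days. The labels give no day for the untreated libraries, so TGF-β and time in culture cannot be told apart. Agps encodes the peroxisomal enzyme that makes the ether bond of ether lipids. All groups share the tumour origin and the culture medium, high glucose DMEM with fetal bovine serum, and the labels name a single KO line, whose derivation as 1 clone or as a pool they do not state. Whether the paired libraries of each group were grown apart is not in the labels. The p-values given here therefore rest only on the spread between these libraries, and that spread may be technical.

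Collagens are secreted proteins of 3 chains wound into a triple helix, and the chains of a trimer can come from 1 gene or from several. Fibrillar collagens build the fibrils of connective tissue, collagen IV forms the network of basement membranes, collagen VI forms beaded filaments next to cells, and collagen VII anchors epithelia to the tissue beneath them. TGF-β is a well known inducer of collagen genes, and epithelial cells that take on mesenchymal features under TGF-β are known to change the matrix they make.

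Library totals ran from 17007268 to 21311831 counts, and collagen genes held 0.0661% to 0.394% of them. Agps, the targeted gene, stood at 43.9 and 35.6 CPM (counts scaled to the TMM-adjusted library total) in KO cells with TGF-β and at 32.9 and 29.3 CPM in untreated KO cells. It stood at 264.8 and 266.2 CPM in WT cells with TGF-β and at 357.2 and 329.8 CPM in untreated WT cells. The epithelial markers Krt8, Krt18, Krt19 and Cdh1 were present in every library, while the identifier of Epcam, the other marker listed, had 0 counts in all of them. The means of Cdh1 and Krt19 were lower with TGF-β in both lines, while those of Krt8 and Krt18 were lower in WT cells only. Cdh1, the epithelial cadherin, averaged 52.3 CPM in KO cells with TGF-β against 302.0 CPM without, and 133.8 CPM in WT cells with TGF-β against 641.9 CPM without. Krt19 averaged 149.3 CPM in KO cells with TGF-β against 1168 CPM without, and 351.9 CPM in WT cells with TGF-β against 1723 CPM without. Krt8 averaged 887.2 CPM in KO cells with TGF-β against 796.2 CPM without, and 813.1 CPM in WT cells with TGF-β against 1142 CPM without. Krt18 averaged 2252 CPM in KO cells with TGF-β against 2077 CPM without, and 1927 CPM in WT cells with TGF-β against 2592 CPM without. Of 7 fibroblast markers, which would mark another source of collagen RNA, Pdgfra alone passed the filter. Their summed level was 2.88 to 4.25 CPM in KO cells with TGF-β, 0.338 to 0.510 CPM in untreated KO cells, 1.06 to 1.97 CPM in WT cells with TGF-β and 0.234 to 0.422 CPM in untreated WT cells. Thy1 had 0 counts in all libraries, and Dcn, Lum and Dpt had at most 2 in any library. Of 5 pericyte and smooth muscle markers Des alone passed the filter, and their summed level was also higher with TGF-β, at 1.82 to 2.22 CPM in KO cells with TGF-β against 0.483 to 0.510 CPM without, and at 2.54 to 3.57 CPM in WT cells with TGF-β against 0.527 CPM in each untreated library. Of 4 chondrocyte markers Sox9 alone passed the filter, at a mean 42.9 CPM in KO cells with TGF-β against 17.8 CPM without and 34.8 CPM in WT cells with TGF-β against 18.0 CPM without, while Acan had 0 counts in all libraries. Of 5 immune markers Cd68, higher with TGF-β in both lines, and Csf1r, lower in both, passed the filter. The summed immune level was 17.1 to 18.3 CPM in KO cells with TGF-β against 32.5 to 32.9 CPM without. In WT cells it was 28.0 to 30.4 CPM with TGF-β against 32.3 to 32.6 CPM without. The 3 adipocyte markers summed to at most 0.111 CPM in any library with TGF-β, and to 0.966 to 1.81 CPM untreated. The 5 endothelial markers summed to at most 1.01 CPM in any library. The part of these markers in the collagen results was not tested. The libraries are bulk RNA, so fewer cells that express a gene and less of its RNA per cell cannot be told apart.

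Of the 44 members, 25 passed the filter on low counts and 19 were below it. The 19 were Col4a6, Col6a4, Col6a5, Col6a6, Col8a1, Col8a2, Col9a1, Col9a2, Col10a1, Col11a1, Col13a1, Col14a1, Col19a1, Col22a1, Col23a1, Col24a1, Col25a1, Col26a1 and Col28a1. Among these, Col4a6, Col9a1 and Col25a1 had no count in any of the 8 libraries. The highest count of a member below the filter in a single library was 6, for Col24a1 in untreated KO cells. A count of 0 in both libraries of a group allows up to 3 counts over the group, which is 0.0793 CPM in KO cells with TGF-β, 0.0710 CPM in untreated KO cells, 0.0841 CPM in WT cells with TGF-β and 0.0832 CPM in untreated WT cells. Such limits and the counting intervals below cover counting error only. The cartilage collagens Col9a1, Col10a1 and Col11a1, the network collagens Col8a1 and Col8a2 of vessels and cornea, and the beaded filament chains Col6a4, Col6a5 and Col6a6 were thus not detectable or barely detectable at this depth with or without TGF-β. Col6a5 and Col6a6 share 3.42% and 3.7% of their 50-base sequences with each other or with other genes, and reads from such stretches may not have been counted.

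Summed over the 44 members per exon length, the family reached 445.1 ± 5.54 RPKM in KO cells with TGF-β and 94.7 ± 6.82 RPKM in untreated KO cells (SD, n = 2 each). In WT cells it reached 522.9 ± 6.90 RPKM with TGF-β and 115.1 ± 2.35 RPKM without (SD, n = 2 each). The TGF-β groups did not overlap with the untreated ones, and the KO libraries were below the WT libraries in both conditions. With TGF-β the lower KO total did not reflect the family as a whole. Col4a1 averaged 124.3 RPKM in KO cells against 224.1 RPKM in WT cells, a wider gap than that of the totals. Other chains were higher in KO cells with TGF-β, such as Col18a1, at 114.9 RPKM against 84.5 RPKM in WT cells, and Col6a3, at 33.0 RPKM against 4.18 RPKM. A few chains made up most of the level per length. The totals and shares use the exon length of all transcripts and were not rerun with another length. Col4a1, a main chain of the collagen IV network, held a mean 27.9% of the family's RPKM in KO cells with TGF-β and 18.2% in untreated KO cells, and 42.9% in WT cells with TGF-β and 26.4% in untreated WT cells. Col18a1, whose proteoglycan product lies in basement membranes and carries endostatin at its end, held 25.8% in KO cells with TGF-β and 51.5% in untreated KO cells. In WT cells Col18a1 held 16.2% with TGF-β and 47.0% without. Before treatment, basement membrane chains held 38.5% and 39.4% of the RPKM in KO cells and 44.7% and 45.9% in WT cells. The multiplexins, Col15a1 and Col18a1, held 55.9% and 56.2% in untreated KO cells and 49.2% and 48.7% in untreated WT cells, so that the other classes together held little.

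**Figure D1:**
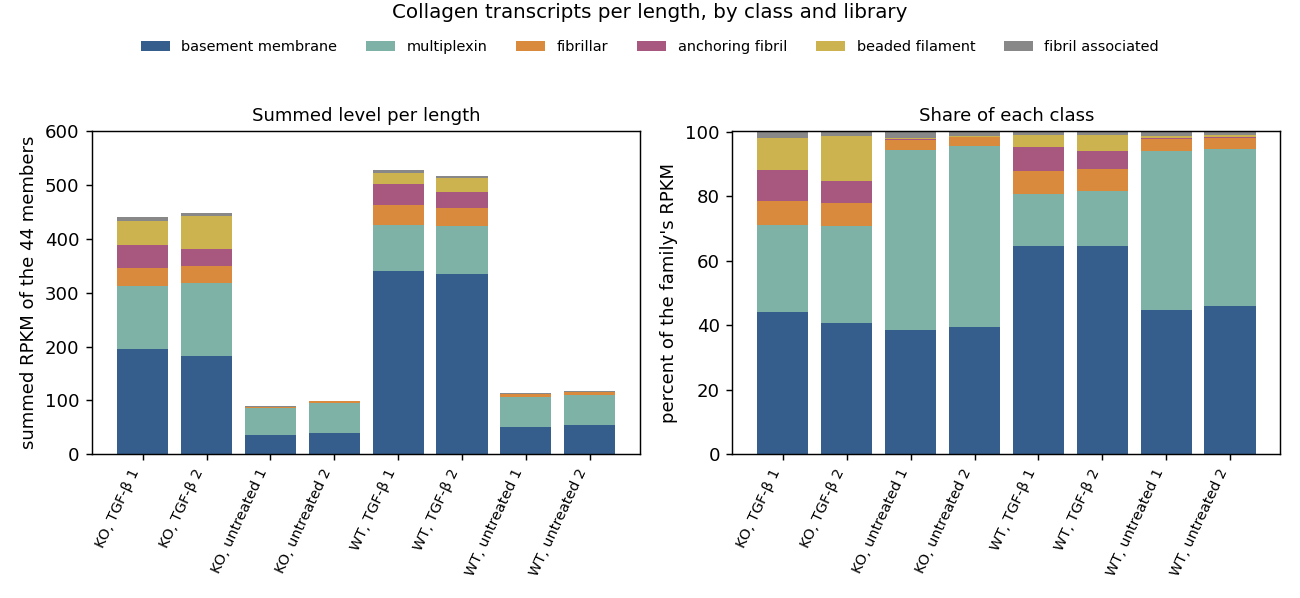
Summed RPKM of the 44 collagen genes (left) and the percentage held by each class (right) in each of the 8 libraries, with KO cells to the left of WT cells and TGF-β to the left of untreated. The family totals are 441.2 and 449.0 RPKM in KO cells with TGF-β against 89.9 and 99.5 RPKM in untreated KO cells, and the beaded filament class, collagen VI, holds 9.92% and 14.0% in KO cells with TGF-β against 3.94% and 4.96% in WT cells with TGF-β.

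Most of the tested collagen genes were higher with TGF-β than without in both lines, and none was called lower. In KO cells 20 of the 25 tested members rose and 0 fell at an adjusted p under 0.05, where 20.9% of all 14641 tested genes rose and 20.6% fell. In WT cells 23 of 25 rose and 0 fell, where 21.3% of all tested genes rose and 21.2% fell. In either line 1 of the members not called had an unadjusted p under 0.05, and DESeq2 also called 0 members lower. Part of these counts is set by the filter, since 10 of the 25 had under 10 counts in every untreated library and entered the test through the treated groups. The 10 were Col1a2, Col2a1, Col3a1, Col5a1, Col5a2, Col5a3, Col6a2, Col9a3, Col12a1 and Col17a1. Of the 15 members with at least 10 counts in an untreated library, 12 rose in KO cells and 14 in WT cells, where 18.3% and 18.5% of the 13931 tested genes with such counts rose. The median log2 fold change of these 15 was 2.28 in KO cells and 2.73 in WT cells, against -0.03 and -0.02 for those 13931 genes.

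**Figure D2:**
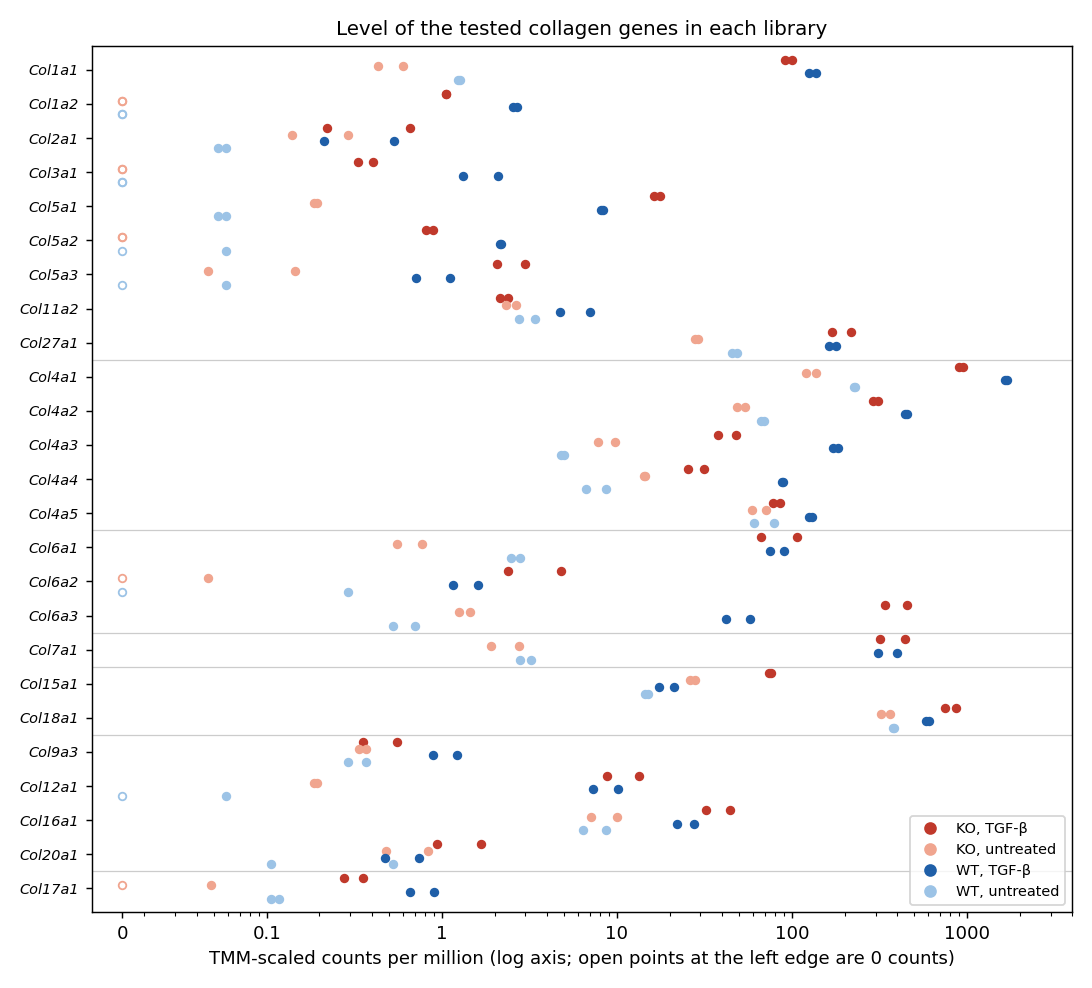
CPM of the 25 tested collagen genes in each library, on a log axis, grouped by class, with KO above WT and TGF-β above untreated within each gene. Col7a1, Col1a1 and Col6a3 show a wide gap between the TGF-β and the untreated points of each line, while the points of Col4a5 and Col11a2 in KO cells lie close together, at 85.8 and 77.8 CPM with TGF-β against 59.4 and 71.0 CPM without for Col4a5 and at 2.38 and 2.16 CPM against 2.66 and 2.32 CPM for Col11a2.

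Among the fibrillar chains, Col1a1 (ENSMUSG00000001506, GRCm38 chromosome 11, 94936224 to 94953042), the main chain of collagen I, stood at 91.2 and 99.8 CPM in KO cells with TGF-β and at 0.435 and 0.603 CPM in untreated KO cells. In WT cells it stood at 137.3 and 125.4 CPM with TGF-β and at 1.27 and 1.23 CPM without. The groups did not overlap, and the log2 fold change was 7.50 in KO cells (SE 0.17, adjusted p = 1.35e-10) and 6.71 in WT cells (SE 0.15, adjusted p = 2.12e-10). Col1a2, the partner chain of collagen I, had 21 and 19 counts in KO cells with TGF-β and 51 and 43 counts in WT cells with TGF-β, and 0 counts in each of the 4 untreated libraries. It was therefore at least 14.9-fold higher in KO cells and at least 31.7-fold higher in WT cells with TGF-β than without. Col3a1, which forms fibrils with collagen I in pliable tissues, behaved alike at lower counts, with 8 and 6 counts in KO cells with TGF-β, 25 and 35 in WT cells with TGF-β and 0 in the untreated libraries.

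Collagen V initiates fibrils and is built from Col5a1, Col5a2 and Col5a3. Col5a1 reached 323 and 319 counts in KO cells with TGF-β against 4 and 4 in untreated KO cells, and 158 and 137 counts in WT cells with TGF-β against 1 and 1 in untreated WT cells. Its log2 fold change in KO cells was 6.44 (SE 0.25, adjusted p = 5.05e-09), and its ratio in WT cells was 149, with a 95% counting interval from 40.9 to 1240. Of the exon length of Col5a1, 2.5% overlaps genes on the opposite strand, and whether counting used strand is not given. Col5a2 had 16 and 16 counts in KO cells with TGF-β against 0 and 0 without, and 41 and 36 counts in WT cells with TGF-β against 0 and 1 without. Col5a3 had 41 and 54 counts in KO cells with TGF-β against 3 and 1 without, and 21 and 12 counts in WT cells with TGF-β against 0 and 1 without. All 3 chains were called in both lines, but each had under 10 counts in every untreated library and was tested because of its treated libraries. Col27a1, a fibrillar collagen known from cartilage that was well counted before treatment, stood at 217.1 and 168.6 CPM in KO cells with TGF-β against 29.0 and 27.8 CPM without. In WT cells Col27a1 stood at 178.5 and 162.8 CPM with TGF-β against 48.6 and 45.4 CPM without.

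The other fibrillar chains tested were Col11a2 and Col2a1. Col11a2, a chain of cartilage collagen XI, stood at 2.38 and 2.16 CPM in KO cells with TGF-β against 2.66 and 2.32 CPM without, values that overlap. It rose in WT cells, to 6.995 and 4.71 CPM with TGF-β against 3.43 and 2.75 CPM without (log2 fold change 0.92, SE 0.24, adjusted p = 0.00941). That call was lost without replicate 1 of WT cells with TGF-β (adjusted p = 0.137) and without replicate 2 of untreated WT cells (adjusted p = 0.0581). Col2a1, the main cartilage collagen, had at most 13 counts in any library and passed the test in neither line, with adjusted p = 0.249 in KO cells and 0.0539 in WT cells. In WT cells it had 13 counts over both libraries with TGF-β against 2 without, a ratio of 6.57 with a 95% counting interval from 1.49 to 60.0. It was called there in 4 other settings, with adjusted p = 0.0495 with upper quartile scaling, 0.0487 with a replicate block, 0.0273 with no filter and 0.0472 without replicate 1 of WT cells with TGF-β.

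**Figure D3:**
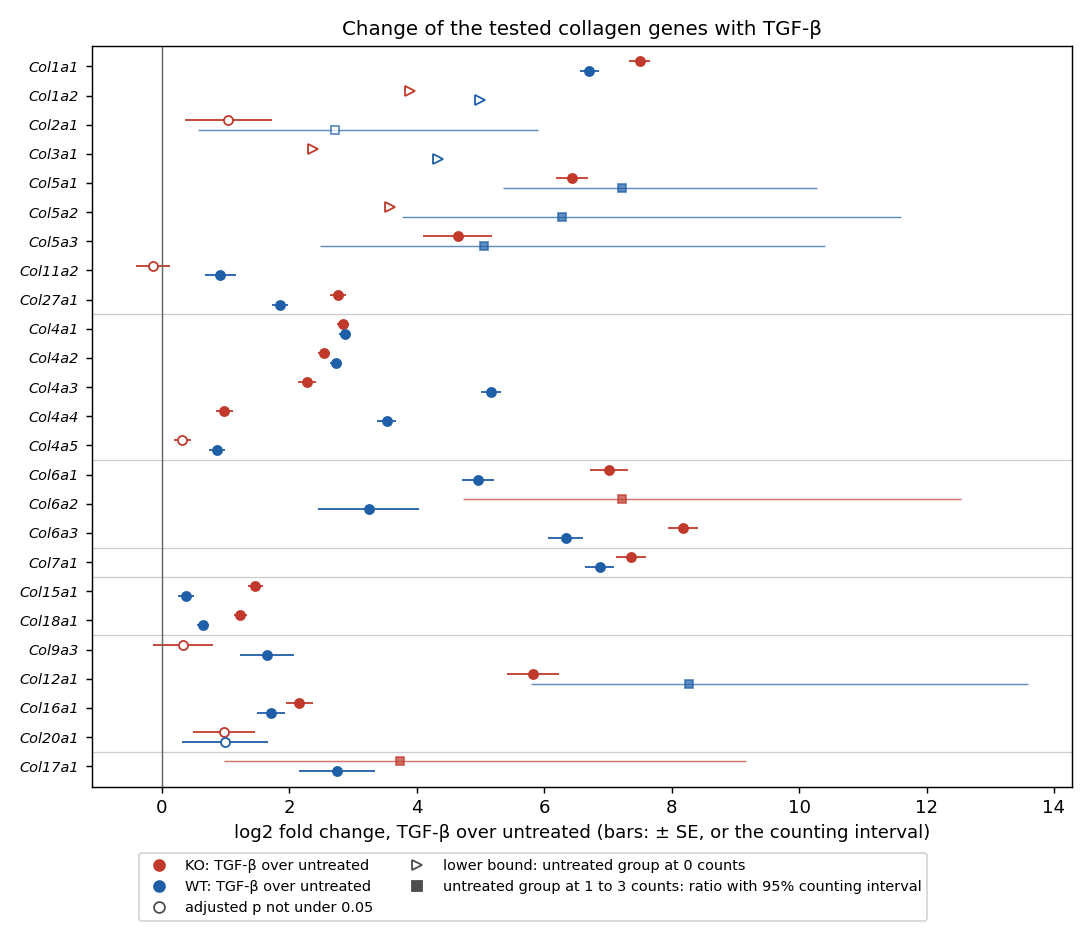
Log2 fold change of each tested collagen gene with TGF-β over untreated, in KO cells (upper point) and WT cells (lower point), with the SE of the edgeR fit, or a lower bound or a counting interval where the untreated group had 3 or fewer counts. No filled point lies below 0; Col4a3 and Col4a4 lie far to the left in KO cells, at 2.28 and 0.99, of their WT points at 5.17 and 3.53.

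The bases before the start of 5 members that rose together with TGF-β are printed here, 3 of which (Col6a3, Col5a1 and Col15a1) were also higher, and 1 (Col3a1) lower, in KO than in WT cells with TGF-β. RefSeq promoters (build GRCm38.p6) were matched by symbol for 35 of the 44 members, as 38 sequences. Not in that table were Col1a1, Col2a1, Col4a3, Col5a2, Col9a3, Col12a1, Col14a1, Col22a1 and Col26a1. The 250 bases before the start of Col3a1, Col5a1, Col6a3, Col7a1 and Col15a1 overlap no annotated exon. They are given 5′ to 3′ on the strand of the gene, with capitals at every match on either strand to CAGAC (the SMAD element bound by the TGF-β signal transducers), GGGCGG (the GC box), CCAAT or TATAAA.
Col3a1, chr1:45311288-45311537, plus strand: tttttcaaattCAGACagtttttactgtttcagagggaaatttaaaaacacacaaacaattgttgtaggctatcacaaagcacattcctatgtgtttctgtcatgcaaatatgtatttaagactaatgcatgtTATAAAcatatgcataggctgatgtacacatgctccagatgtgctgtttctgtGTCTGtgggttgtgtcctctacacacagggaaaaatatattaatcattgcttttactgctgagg
Col5a1, chr2:27886175-27886424, plus strand: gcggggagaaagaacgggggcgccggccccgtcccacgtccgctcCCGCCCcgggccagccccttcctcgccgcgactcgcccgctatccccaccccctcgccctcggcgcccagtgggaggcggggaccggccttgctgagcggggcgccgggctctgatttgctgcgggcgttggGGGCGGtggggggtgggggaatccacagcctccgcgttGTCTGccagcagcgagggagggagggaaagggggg
Col6a3, chr1:90843972-90844221, minus strand: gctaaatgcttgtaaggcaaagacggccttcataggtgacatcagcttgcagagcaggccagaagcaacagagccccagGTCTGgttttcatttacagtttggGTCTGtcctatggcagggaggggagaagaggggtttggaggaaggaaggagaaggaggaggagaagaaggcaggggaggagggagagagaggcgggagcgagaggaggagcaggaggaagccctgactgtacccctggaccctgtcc
Col7a1, chr9:108953336-108953585, plus strand: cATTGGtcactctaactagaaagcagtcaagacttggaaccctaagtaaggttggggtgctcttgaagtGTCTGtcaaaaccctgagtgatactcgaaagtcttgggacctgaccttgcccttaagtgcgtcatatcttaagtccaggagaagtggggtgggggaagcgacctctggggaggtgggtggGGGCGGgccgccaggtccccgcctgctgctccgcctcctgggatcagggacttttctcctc
Col15a1, chr4:47207762-47208011, plus strand: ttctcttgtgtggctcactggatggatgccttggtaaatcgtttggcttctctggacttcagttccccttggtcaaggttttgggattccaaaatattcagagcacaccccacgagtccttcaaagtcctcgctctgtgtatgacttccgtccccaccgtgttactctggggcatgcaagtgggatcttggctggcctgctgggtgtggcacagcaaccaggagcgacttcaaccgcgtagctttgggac
Col3a1 and Col6a3 each held 2 CAGAC matches, Col5a1 and Col7a1 held 1, and Col15a1 held none of the 4 motifs. None of the matches overlapped another. The GC box was matched at 2 places in Col5a1 and 1 place in Col7a1. CAGAC was found in 17 of the 38 member promoters (44.7%) and in 42.2% of all 32851 promoters of the table over the same 250 bases, and TATAAA in 13.2% of the member promoters and 12.4% of all. CCAAT was found in 34.2% of the member promoters and 33.8% of all, and GGGCGG in 57.9% of the member promoters and 32.7% of all. These are matches of letters, not measured binding, and a window without a match says nothing of binding elsewhere.

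Basement membrane chains held the largest share of the family's RPKM in the treated libraries. Col4a1 (ENSMUSG00000031502, chromosome 8, 11198423 to 11312826, minus strand) and Col4a2 (ENSMUSG00000031503, chromosome 8, 11312805 to 11449287, plus strand), the ubiquitous chains of collagen IV, start head to head and overlap by a short stretch at their starts. Col4a1 stood at 952.2 and 903.7 CPM in KO cells with TGF-β against 120.4 and 137.0 CPM without, and at 1693 and 1653 CPM in WT cells with TGF-β against 228.0 and 225.2 CPM without. The log2 fold change was 2.85 in KO cells (SE 0.09, adjusted p = 1.55e-09) and 2.88 in WT cells (SE 0.09, adjusted p = 1.81e-09). Col4a2 stood at 308.9 and 291.7 CPM in KO cells with TGF-β against 48.3 and 54.1 CPM without. In WT cells Col4a2 stood at 456.3 and 442.7 CPM with TGF-β against 66.3 and 68.8 CPM without. For both genes the treated and untreated libraries of each line were far apart and the replicates close together.

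Col4a3, Col4a4 and Col4a5 form the trimer known from the kidney glomerulus, lung and inner ear. Col4a3 (chromosome 1, from 82586921, plus strand) and Col4a4 (chromosome 1, to 82586849, minus strand) also start head to head. Col4a3 had 942 and 679 counts in KO cells with TGF-β against 203 and 167 without, and 3243 and 3059 counts in WT cells with TGF-β against 95 and 82 without. Col4a4 had 624 and 458 counts in KO cells with TGF-β against 296 and 312 without, and 1661 and 1487 counts in WT cells with TGF-β against 126 and 148 without. Both genes rose in both lines, by 2.28 and 0.99 on the log2 scale in KO cells and by 5.17 and 3.53 in WT cells. The untreated KO libraries were above the untreated WT libraries for both genes, while the treated KO libraries were below the treated WT libraries. A gene on the opposite strand, C430014B12Rik, overlaps 5.65% of the exon length of Col4a3 and none of Col4a4. Col4a5, on chromosome X, stood at 85.8 and 77.8 CPM in KO cells with TGF-β against 59.4 and 71.0 CPM without, and at 124.3 and 130.2 CPM in WT cells with TGF-β against 60.9 and 78.8 CPM without. It rose in WT cells (log2 fold change 0.87, SE 0.13, adjusted p = 2.37e-04). In KO cells its log2 fold change was 0.33 (SE 0.13, adjusted p = 0.0643). It was called there in several other settings, among them a replicate block (adjusted p = 0.0253) and no filter (0.0201). Without replicate 2 of untreated KO cells the log2 fold change was 0.46. Its partner Col4a6, which lies beside it on chromosome X, had no count.

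Collagen VI trimers are made of Col6a1, Col6a2 and another chain such as Col6a3. Col6a3 (ENSMUSG00000048126, chromosome 1, 90765923 to 90843971) stood at 338.9 and 451.2 CPM in KO cells with TGF-β against 1.45 and 1.25 CPM without, and at 42.2 and 57.7 CPM in WT cells with TGF-β against 0.527 and 0.703 CPM without. The log2 fold changes were 8.19 in KO cells (SE 0.24, adjusted p = 8.24e-10) and 6.34 in WT cells (SE 0.28, adjusted p = 1.20e-08). Col6a1 stood at 66.4 and 107.4 CPM in KO cells with TGF-β against 0.773 and 0.557 CPM without, and at 75.0 and 90.5 CPM in WT cells with TGF-β against 2.48 and 2.81 CPM without. With TGF-β the Col6a1 libraries of the lines overlapped, while those of Col6a3 did not. Col6a2 was low, with 47 and 87 counts in KO cells with TGF-β against 0 and 1 without, and 22 and 27 counts in WT cells with TGF-β against 0 and 5 without. The ratio of Col6a2 in KO cells was 150, with a 95% counting interval from 26.4 to 5960, and all 3 chains rose in both lines.

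Col7a1 (ENSMUSG00000025650, chromosome 9, 108953586 to 108984875), the sole chain of anchoring fibrils, had 8783 and 5775 counts in KO cells with TGF-β against 57 and 41 without, and 7520 and 5220 counts in WT cells with TGF-β against 61 and 48 without. In both treated groups replicate 1 was the higher library, at 444.0 and 320.1 CPM in KO cells and 398.5 and 311.0 CPM in WT cells, so that the lines overlapped. The 2 multiplexins were well counted before treatment and had smaller fold changes. Col18a1 stood at 747.5 and 865.8 CPM in KO cells with TGF-β against 321.7 and 363.6 CPM without, and at 583.2 and 603.5 CPM in WT cells with TGF-β against 375.4 and 383.4 CPM without. Col15a1, known from the basement membrane zones of muscle and vessels, stood at 74.2 and 75.5 CPM in KO cells with TGF-β against 27.9 and 26.1 CPM without (log2 fold change 1.47, SE 0.11, adjusted p = 9.09e-07). In WT cells Col15a1 stood at 17.4 and 21.2 CPM with TGF-β against 15.1 and 14.5 CPM without (log2 fold change 0.38, SE 0.12, adjusted p = 0.0249). The call in WT cells was lost without replicate 2 of WT cells with TGF-β (adjusted p = 0.267) and without replicate 1 or 2 of untreated WT cells (adjusted p = 0.0608 and 0.104).

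Fibril-associated collagens lie on the surface of fibrils. Col12a1 had 266 and 158 counts in KO cells with TGF-β against 4 and 4 without, and 138 and 170 counts in WT cells with TGF-β against 0 and 1 without. Col16a1 stood at 43.98 and 32.3 CPM in KO cells with TGF-β against 10.0 and 7.10 CPM without, and at 27.5 and 22.0 CPM in WT cells with TGF-β against 8.64 and 6.44 CPM without. Both genes rose in both lines, and their treated and untreated libraries did not overlap. Col12a1, unlike Col16a1, was tested because of its treated libraries, so its rise and lack of overlap are partly set by the filter. Col9a3 stayed at 0.354 and 0.554 CPM in KO cells with TGF-β against 0.338 and 0.371 CPM without. In WT cells Col9a3 stood at 1.22 and 0.894 CPM with TGF-β against 0.369 and 0.293 CPM without (adjusted p = 0.00867). That call was lost with DESeq2 (adjusted p = 0.0965), without replicate 1 of WT cells with TGF-β (0.0937) and without replicate 2 of untreated WT cells (0.0598), and Tcfl5 on the opposite strand overlaps 6.07% of its exon length. Col20a1, at most 33 counts in any library, was called in neither line (adjusted p = 0.133 in KO cells, where it was 0.0418 with no filter, and 0.270 in WT cells). Col17a1, a transmembrane collagen of epithelial hemidesmosomes, had 7 and 5 counts in KO cells with TGF-β against 1 and 0 without, and 17 and 11 counts in WT cells with TGF-β against 2 and 2 without. It was called higher in both lines. In KO cells that call was lost with DESeq2 (adjusted p = 0.0794), without replicate 1 of KO cells with TGF-β (0.0640) and without replicate 2 of untreated KO cells (0.0902).

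The partner chains of single collagens were present in unequal amounts per length. In collagen I the RPKM of Col1a1 was 163 and 179 times that of Col1a2 in KO cells with TGF-β and 96.2 and 92.7 times that of Col1a2 in WT cells with TGF-β, with 19 to 51 counts of Col1a2 behind each ratio. These ratios depend on the length used. With the longest coding transcript of each gene they were 77.4 and 85.4 in KO cells and 45.8 and 44.1 in WT cells. In collagen V the ratio of Col5a1 to Col5a2 was 22.8 and 22.5 in KO cells with TGF-β and 4.35 and 4.30 in WT cells with TGF-β, or 15.9 and 15.7 in KO cells and 3.04 and 3 in WT cells by the longest coding transcript. In collagen VI the ratio of Col6a1 to Col6a2 was 53.1 and 42.3 in KO cells with TGF-β and 122 and 107 in WT cells with TGF-β, or 31.7 and 25.3 in KO cells and 73 and 63.8 in WT cells by the longest coding transcript. The ratio of Col6a3 to Col6a1 was 1.87 and 1.54 in KO cells with TGF-β, 0.686 and 0.824 in untreated KO cells, 0.206 and 0.234 in WT cells with TGF-β and 0.0779 and 0.0915 in untreated WT cells. For collagen IV the ratio of Col4a1 to Col4a2 stayed within a narrow band, at 2.73 and 2.75 in KO cells with TGF-β, 2.21 and 2.25 in untreated KO cells, 3.29 and 3.31 in WT cells with TGF-β and 3.05 and 2.90 in untreated WT cells. In each of these 5 ratios the KO and WT libraries with TGF-β did not overlap. No test was made of the ratios.

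**Figure D4:**
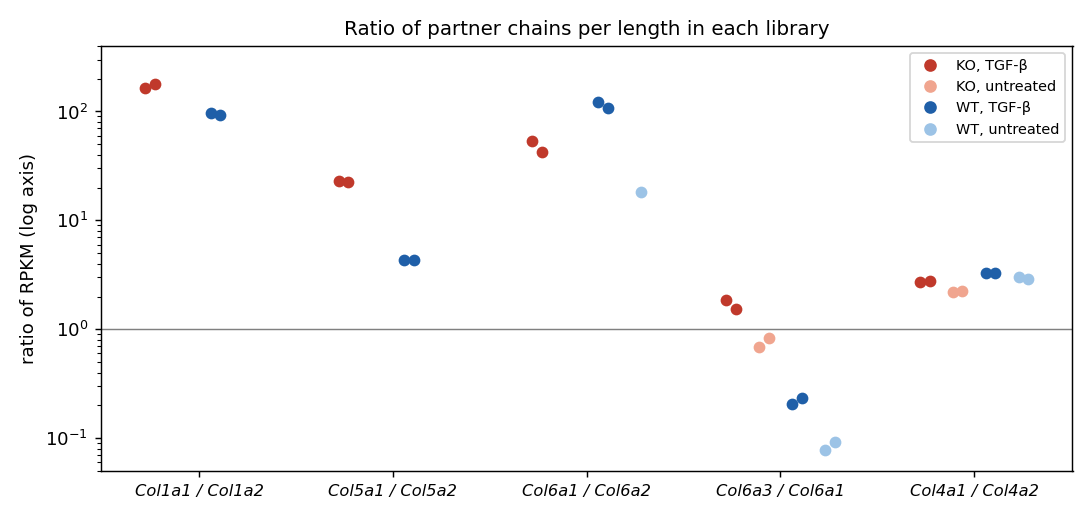
Ratio of the RPKM of partner chains in each library, on a log axis, with a line at 1 where the chains are equal; ratios with 3 or fewer counts of either chain are not drawn. In KO cells with TGF-β the ratio of Col1a1 to Col1a2 is 163 and 179, and that of Col6a3 to Col6a1, at 1.87 and 1.54, lies above 1, against 0.206 and 0.234 in WT cells with TGF-β.

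KO and WT cells were compared directly at each condition. These comparisons share libraries with those of TGF-β. With TGF-β, 6 of the 25 tested members were higher and 10 lower in KO cells, where 6.82% of all tested genes were higher and 11.1% lower. Untreated, 3 members were higher and 5 lower in KO cells, where 4.72% of all tested genes were higher and 8.94% lower. The median size of the log2 difference, without its sign, was 1.09 for the tested members with TGF-β against 0.23 for all tested genes, and 0.87 against 0.21 untreated. The untreated value includes members that passed the filter through their treated libraries and so holds counting error. Col1a2 and Col3a1 had 0 counts in the untreated libraries, and Col5a2 had 0 in untreated KO cells against 1 in untreated WT cells.

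With TGF-β the members higher in KO cells were Col6a3, Col15a1, Col5a1, Col5a3, Col16a1 and Col18a1. Col6a3 was higher by 2.98 on the log2 scale (SE 0.16, adjusted p = 1.01e-06) and Col15a1 by 1.96 (SE 0.12, adjusted p = 1.87e-06). Col5a1 was higher by 1.04 (SE 0.15, adjusted p = 6.88e-04) and Col5a3 by 1.45 (SE 0.37, adjusted p = 0.0195). The libraries of the lines did not overlap for any of these, but neither did they for Col6a2, Col9a3, Col17a1 and Col20a1, which were not called. The share of all tested genes without overlap is not given here. Col16a1 (log2 fold change 0.62, adjusted p = 0.0488), Col18a1 (0.44, adjusted p = 0.00852) and Col5a3 lost the call without 1 of several libraries. Without replicate 1 of WT cells with TGF-β, the adjusted p was 0.0883 for Col16a1, 0.0902 for Col18a1 and 0.0634 for Col5a3. Without replicate 2 of WT cells with TGF-β it was 0.303 for Col16a1, 0.0562 for Col18a1 and 0.166 for Col5a3. Without replicate 1 of KO cells with TGF-β it was 0.333 for Col16a1, and without replicate 2 of those cells it was 0.0708 for Col18a1 and 0.156 for Col5a3. DESeq2 did not call Col5a3 (adjusted p = 0.110). Col6a2 was at 2.38 and 4.82 CPM in KO cells and 1.17 and 1.61 CPM in WT cells, a log2 fold change of 1.37 with adjusted p = 0.0591. It was called with a replicate block (adjusted p = 0.0101), with no filter (7.49e-05), without replicate 1 of KO cells with TGF-β (0.0468) and without any 1 of the 4 untreated libraries (0.0199 to 0.0437).

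The 10 members lower in KO cells with TGF-β were all 5 tested collagen IV chains and the fibrillar chains Col1a1, Col1a2, Col3a1, Col5a2 and Col11a2. Col4a3 was lower by a log2 fold change of -2.05 (SE 0.13, adjusted p = 3.05e-06) and Col4a4 by -1.63 (SE 0.13, adjusted p = 1.43e-05). Col4a1 differed by -0.85, Col4a2 by -0.58 and Col4a5 by -0.64. Col11a2 differed by -1.37 (SE 0.25, adjusted p = 0.00318), Col3a1 by -2.17 (SE 0.44, adjusted p = 0.00808) and Col1a1 by -0.46 (SE 0.10, adjusted p = 0.00716). Col3a1 had 8 and 6 counts in KO cells with TGF-β and 25 and 35 in WT cells with TGF-β. It entered the test only through those WT libraries, so its call as lower in KO cells is partly set by the filter. Col1a2 at -1.31 and Col5a2 at -1.34 rested on 19 to 51 and 16 to 41 counts in a library, and the libraries of the lines did not overlap. Leaving out any 1 of the 4 treated libraries took the adjusted p to 0.0791 to 0.111 for Col1a2 and 0.102 to 0.122 for Col5a2. DESeq2 gave 0.154 for Col1a2, 0.194 for Col5a2 and 0.0691 for Col3a1. The Col3a1 call was also lost without replicate 2 of WT cells (0.0853) or replicate 1 or 2 of KO cells (0.0647 and 0.0853), that of Col1a1 without replicate 1 of WT cells (0.106) or of KO cells (0.0709), and that of Col4a5 without replicate 2 of WT cells (0.0513) or of KO cells (0.0769). Col7a1, Col6a1, Col12a1 and Col27a1 had overlapping libraries and were not called.

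Untreated, Col4a3, Col4a4 and Col15a1 were higher in KO cells, by 0.84, 0.91 and 0.87 on the log2 scale. Col4a3 stood at 9.80 and 7.75 CPM in untreated KO cells against 5.01 and 4.80 CPM in untreated WT cells, and Col4a4 at 14.3 and 14.5 CPM in untreated KO cells against 6.64 and 8.67 CPM in untreated WT cells. Lower in untreated KO cells were Col6a1 (log2 fold change -1.98, SE 0.43, adjusted p = 0.00965), Col1a1 (-1.25, SE 0.28, adjusted p = 0.0129), Col4a1 (-0.82, SE 0.09, adjusted p = 1.58e-04), Col27a1 (-0.73, SE 0.12, adjusted p = 0.00254) and Col4a2 (-0.40, SE 0.09, adjusted p = 0.0118). The libraries of the lines did not overlap for these genes. Neither did they for Col2a1, Col5a1, Col6a3, Col7a1, Col11a2, Col12a1, Col17a1 and Col18a1, which were not called. The lack of overlap thus does not set the called genes apart. The Col1a1 difference rested on 9 and 13 counts in KO cells against 24 and 21 in WT cells, and its adjusted p was 0.102 without replicate 1 of KO cells and 0.0695 without replicate 1 of WT cells. Col4a3 (adjusted p = 0.0506 without replicate 1 of KO cells), Col6a1 (0.0506 without replicate 2 of KO cells) and Col4a2 (0.0892 without replicate 1 of KO cells, 0.0512 without replicate 2 of WT cells) also lost the call. Col6a3 had 30 and 27 counts in untreated KO cells against 10 and 12 in untreated WT cells, with adjusted p = 0.133. Its adjusted p was 0.0200 with a replicate block, 0.0164 with no filter and 0.0311 with DESeq2.

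Tested genes of some chromosomal regions, that of Col4a1 and Col4a2 among them, differed between the lines as a group, so each KO difference was set beside the median of the 50 nearest tested genes on each side. With TGF-β that median was -0.29 for Col4a1 and -0.28 for Col4a2 on chromosome 8, 0.15 for Col4a5 on chromosome X, 0.12 for Col4a3 and Col4a4 and 0.07 for Col6a3 on chromosome 1, and -0.02 for Col15a1 on chromosome 4. Relative to its neighbours Col4a1 still differed by -0.56, while Col4a2 differed by -0.30. The median over all tested genes of chromosome 8 was lower still, at -0.47 with TGF-β and -0.46 untreated. Relative to it Col4a1 differed by -0.38 with TGF-β and -0.35 untreated, and Col4a2 by -0.11 with TGF-β and 0.06 untreated, so that most of the Col4a2 difference was shared by the chromosome. With the neighbours' median taken out as an offset, the untreated difference of Col4a2 was -0.11 (adjusted p = 0.533) and the difference of Col16a1 with TGF-β was 0.60 (adjusted p = 0.0733), and both calls were lost. The other members called higher or lower between the lines kept their call with this offset. No test was made against the chromosome's median.

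**Figure D5:**
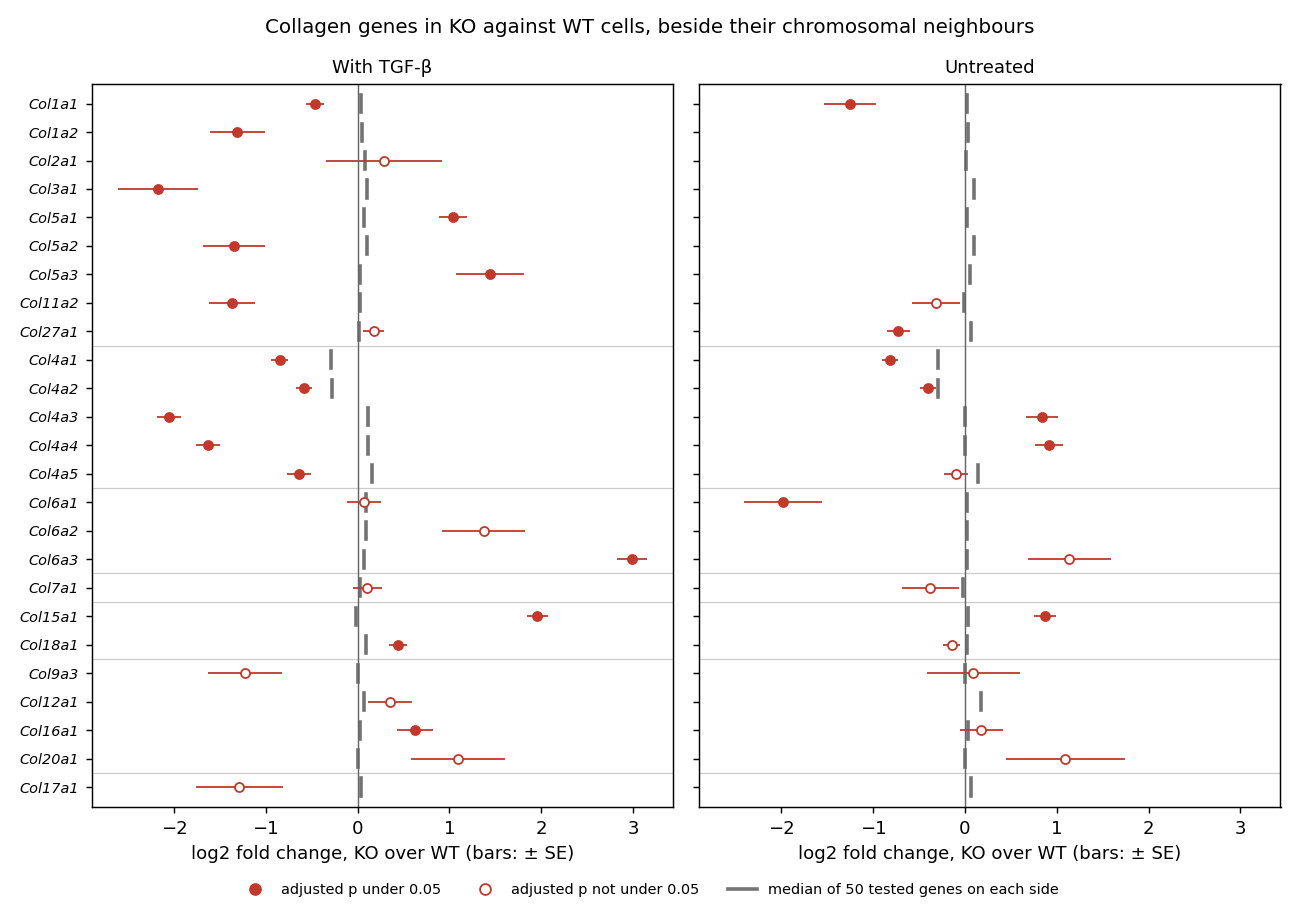
Log2 fold change of each tested collagen gene in KO over WT cells with TGF-β (left) and untreated (right), with the SE of the edgeR fit; grey bars are the median of the 50 nearest tested genes on each side, and members with 3 or fewer counts in a group have no point. With TGF-β the 5 collagen IV chains lie below 0, from -0.58 to -2.05, and Col6a3 and Col15a1 lie at 2.98 and 1.96; the neighbours of Col4a1 and Col4a2 lie at -0.29 and -0.28.

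The change with TGF-β differed between the lines for 6 of the 25 tested members, with 4 changes larger and 2 smaller in KO than in WT cells. Over all tested genes the signed log2 change was higher in KO cells for 1.25% and lower for 1.15%. The change was smaller in KO cells for Col4a3, by a log2 difference of -2.89 (SE 0.21, adjusted p = 1.34e-04), and for Col4a4, by -2.55 (SE 0.20, adjusted p = 1.34e-04). It was larger in KO cells for Col15a1, by 1.09 (SE 0.17, adjusted p = 0.00692), Col27a1, by 0.90 (SE 0.17, adjusted p = 0.0201), Col6a1, by 2.05 (SE 0.47, adjusted p = 0.0454), and Col18a1, by 0.59 (SE 0.14, adjusted p = 0.0495). For Col6a1 and Col27a1 the treated libraries of the lines overlapped and the untreated KO libraries were below the untreated WT libraries. For Col6a3 the difference was 1.85 (SE 0.54, adjusted p = 0.120). For Col4a5 it was -0.54 (SE 0.18, adjusted p = 0.188), and the adjusted p was 0.0417 with no filter. For Col4a1 and Col1a1 it was -0.03 (adjusted p = 0.953) and 0.79 (adjusted p = 0.288), and for the 19 members without a call a difference is not shown to be absent.

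Genes that modify, process, bind or sense collagens were taken from 3 further lists. Of 32 genes of collagen biosynthesis and processing, 23 were tested, and with TGF-β 17 rose and 0 fell in KO cells, while 17 rose and 2 fell in WT cells. Over all tested genes 20.9% rose and 20.6% fell in KO cells, and 21.3% rose and 21.2% fell in WT cells. Part of the list's counts is set by the filter, since some of its genes entered the test through the treated groups. Over both untreated libraries Lox had 0 counts in KO cells and 1 in WT cells, and Serpinh1 had 1 in KO cells and 3 in WT cells. The median log2 fold change of the list was 0.70 in KO cells and 0.89 in WT cells, against -2.26e-04 and 0.00796 for all tested genes. Bmp1, the protease that trims the end of procollagens, averaged 338.2 CPM in KO cells with TGF-β against 28.8 CPM without, and 275.4 CPM in WT cells with TGF-β against 30.4 CPM without. Pcolce2, an enhancer of that trimming, rose by 5.03 on the log2 scale in KO cells and by 4.69 in WT cells. Loxl1, a lysyl oxidase that crosslinks matrix, rose by 5.33 in KO cells and by 6.37 in WT cells, but from a level near the floor. It averaged 5.02 CPM in KO cells with TGF-β against 0.119 CPM without, and 16.6 CPM in WT cells with TGF-β against 0.193 CPM without. In untreated KO against WT cells 3 of these 23 genes were higher and 0 lower, where 4.72% of all tested genes were higher and 8.94% lower. They were the prolyl hydroxylase subunits P4ha1 (log2 fold change 0.59, adjusted p = 0.0203) and P4ha2 (1.31, adjusted p = 1.63e-05) and the lysyl hydroxylase Plod2 (1.18, adjusted p = 2.01e-04). With TGF-β 6 were higher and 2 lower in KO cells, where 6.82% of all tested genes were higher and 11.1% lower. Among them were P4ha2 (0.82, adjusted p = 2.46e-04), Loxl1 (-1.73, adjusted p = 1.44e-04) and the prolyl hydroxylase P3h2 (-1.64, adjusted p = 0.00122).

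Of 12 collagen receptor genes 9 were tested, and with TGF-β 4 rose and 2 fell in KO cells and 4 rose and 1 fell in WT cells. Itga11, called higher in both lines, had 5 counts over both untreated KO libraries and 3 over both untreated WT libraries, and was tested because of its treated libraries. Beside the 20.9% and 20.6% of all tested genes that rose and fell in KO cells and the 21.3% and 21.2% in WT cells, the receptors that fell are near or under the general share. In KO against WT cells 0 of the 9 were higher and 3 lower with TGF-β, and 1 was higher and 2 lower untreated. Over all tested genes 6.82% were higher and 11.1% lower in KO cells with TGF-β, and 4.72% were higher and 8.94% lower untreated. Cd44 rose in both lines. It averaged 1012 CPM in KO cells with TGF-β against 298.3 CPM without, and 973.2 CPM in WT cells with TGF-β against 346.9 CPM without. Itga1, the integrin chain that binds collagen IV, fell in KO cells, to 26.6 CPM with TGF-β against 213.4 CPM without, and in WT cells, to 28.1 CPM with TGF-β against 142.6 CPM without. Ddr2, a receptor kinase for fibrillar collagens, averaged 4.26 CPM in KO cells against 42.8 CPM in WT cells with TGF-β (log2 fold change -3.32, SE 0.23, adjusted p = 5.55e-06). In KO cells Ddr2 fell with TGF-β, from 24.5 CPM without (log2 fold change -2.52, adjusted p = 4.94e-06). In WT cells, at 32.9 CPM without, its change was not called (0.38, adjusted p = 0.139). The difference of these log2 changes, KO minus WT, was -2.90 (SE 0.31, adjusted p = 7.76e-04), the only call of the list in that comparison. Itgb1, the partner of Itga1, averaged 1188 CPM in KO cells against 3105 CPM in WT cells with TGF-β (log2 fold change -1.39, adjusted p = 4.57e-06). It was also lower untreated, at 531.8 CPM in KO cells against 1094 CPM in WT cells (log2 fold change -1.04, adjusted p = 3.79e-05). With TGF-β Itgb1 rose in both lines, by 1.160 on the log2 scale in KO cells and 1.505 in WT cells. That change was not called different between the lines (adjusted p = 0.248). Adgrg1 was lower in KO than in WT cells with TGF-β (log2 fold change -1.03, adjusted p = 1.42e-05) and untreated (-1.10, adjusted p = 1.09e-05). Unlike those of the collagen genes, the KO differences of the listed genes were not set beside their chromosomal neighbours. Of 11 partners of collagen fibrils 6 were tested, and with TGF-β 4 rose and 1 fell in KO cells and 5 rose and 1 fell in WT cells. The shares over all tested genes are those given above for TGF-β in each line. In KO against WT cells 0 of the 6 were higher and 3 lower both with TGF-β and untreated. Beside these stand the same 6.82% higher and 11.1% lower of all tested genes with TGF-β, and 4.72% and 8.94% untreated. Fn1, which encodes fibronectin, rose by 3.83 on the log2 scale in KO cells and 4.23 in WT cells. Postn, which encodes periostin, averaged 17.0 CPM in KO cells against 81.2 CPM in WT cells with TGF-β (log2 fold change -2.26, SE 0.26, adjusted p = 1.82e-04). Untreated, Postn had 1 count over both KO libraries against 31 over both WT libraries (adjusted p = 0.0316), and WT cells were above KO cells by a ratio of 36.3 with a 95% counting interval from 6.06 to 1480. Tnxb, which encodes tenascin-X, fell with TGF-β in both lines, with log2 fold changes of -2.12 in KO cells and -3.06 in WT cells. The small leucine-rich proteoglycans Dcn, Lum, Fmod, Ogn and Prelp, which coat fibrils in connective tissue, were all below the filter.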

How the data were processed

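Polyadenylated RNA of 8 libraries, 2 in each of 4 groups, was analysed. STAR 2.7.1a, featureCounts 1.6.2, DESeq2 1.26.0 and the build GRCm38 (mm10) are named in the submitters' processing notes. The sources used here give neither the annotation release nor the use of strand. The authors deposited whole raw counts per gene, and their table of normalized values was not used.

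Symbols, exon lengths, overlaps and shared 50-base sequences came from GENCODE M21, which is on the same build. Genes were kept with filterByExpr (minimum count 10, by group). Counts were scaled by TMM and fitted with edgeR's quasi-likelihood method (edgeR 4.0.16, R 4.3.3), with 1 mean per group and 4 residual degrees of freedom. The 5 comparisons were TGF-β in KO and in WT cells, KO against WT cells with TGF-β and untreated, and how the TGF-β changes of the lines differ. P-values were adjusted by Benjamini-Hochberg over all 14641 tested genes, and calls were made at an adjusted p under 0.05. The SE was derived from the F statistic. RPKM is the CPM divided by the exon length of all transcripts in kilobases. The fit was tested on simulated data. Between a group at 0 counts and another, a lower bound used 3 counts over the group; at 1 to 3 counts the ratio has an exact 95% counting interval.

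The alternatives were other scalings (DESeq2-type size factors, upper quartile), no filter or a minimum count of 50, DESeq2 1.42.0, a replicate block, leaving out each library, an offset by 50 neighbours on each side, and a log2 change of at least 1. The longest coding transcript as length was added after the values were seen. All members, Agps, and up to 3 called genes per list and comparison with an average of at least 1 log2 CPM are named. Other genes named as below the filter or at 0 counts were chosen after their values were seen. The members and lists were chosen with earlier results of these data known. Replicates of a group differed by 4.39 to 17.4 times the sampling variance, so none is a repeated deposit. Figures were drawn with matplotlib 3.10.9.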

Additional observations from a re-analysis of the deposited data

Results flagged for a closer look

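Of the tested collagen genes 6 were singled out because their change with TGF-β differed between KO and WT cells in the test of the difference itself. The log2 difference, KO minus WT, was -2.89 for Col4a3 and -2.55 for Col4a4, each with an adjusted p of 1.34e-04 in edgeR. For Col15a1 it was 1.09 (adjusted p = 0.00692) and for Col27a1 0.90 (adjusted p = 0.0201). For Col6a1 it was 2.05 (adjusted p = 0.0454) and for Col18a1 0.59 (adjusted p = 0.0495). Over all tested genes, the signed log2 change was higher in KO cells for 1.25% and lower for 1.15%.

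The calls of Col4a3, Col4a4 and Col15a1 held under each alternative run for this difference. For Col27a1 the adjusted p was 0.0641 without replicate 1 of WT cells with TGF-β, 0.101 without replicate 2 of those cells and 0.0584 without replicate 1 of KO cells with TGF-β. For Col6a1 it was 0.0517 to 0.116 in the 7 of 8 settings without a library where the call was lost, and 0.0520 at a minimum count of 50. For Col18a1 the call was lost without any library but replicate 2 of untreated KO cells (adjusted p = 0.0506 to 0.219), at a minimum count of 50 (0.0517) and with upper quartile scaling (0.0615).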

How the results depend on the processing

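The counts of called members with TGF-β in each line kept within 1.5 times their value under every setting run, and 0 members were called lower in any of them. Requiring a log2 change of at least 1 left 0 members higher and 2 lower in untreated KO against WT cells, 6 lower with TGF-β, and 2 with a larger TGF-β change in KO cells. A minimum count of 50, which left 16 members to test, also gave 2 with a larger change. Leaving out each library in turn gave 19 to 21 members higher with TGF-β in KO cells and 20 to 23 in WT cells. It gave 3 to 7 higher and 6 to 10 lower in KO against WT cells with TGF-β, and 2 to 3 higher and 3 to 5 lower untreated. For the difference of the TGF-β changes it gave 1 to 3 larger, against 4 with all libraries, and 2 to 3 smaller. A lone library was then assumed to vary like the other groups. With a replicate block 21 members rose in KO and 24 in WT cells, 7 were higher and 10 lower in KO cells with TGF-β, 4 and 5 untreated, and 5 changes were larger and 2 smaller. Col6a3 was among the larger ones with the replicate block (adjusted p = 0.0105), with no filter (3.89e-04) and with DESeq2 (0.00113). Same-numbered libraries deviated together only in part (correlations of 0.0218 to 0.308) and the labels do not say what a number shares, so they were not treated as pairs. No called value changed sign. The 10 members with under 10 counts in every untreated library are limited by depth. Where no cause is named for a lost call, the cause was not tested.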
